A study of Mus musculus with 9 samples.

Results

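The contractile apparatus of mature skeletal muscle was followed in RNA from mouse fracture callus through 43 genes, which code for proteins of the sarcomere, of calcium release and of the energy supply of muscle fibers. The genes were picked by symbol from a list, with no measured value in the rule, out of 22054 genes in the deposited table. All 43 were present in the table and all 43 passed the filter on low counts in each comparison. Of these genes, 15 belong chiefly to fast fibers, 8 chiefly to slow fibers, and 20 are shared by both or were placed in neither list. In each group the callus came from male C57BL/6J mice aged 7 weeks, whose femur had been broken and fixed with an intramedullary needle, and was taken on day 7. The mice received 200 μl a day into the peritoneum for a week, containing 750 nmol of H-151, which blocks the innate immune adaptor STING, or 30 mg/kg of SR-717, which activates it, or PBS as the control. All groups therefore share the fracture, the surgery and the injections. Each of the 3 groups had 3 libraries, which the labels call biological samples without saying whether a library is 1 mouse or a pool, so p-values measure the spread between these libraries only.

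A sarcomere is the repeating contractile unit of a muscle fiber, in which myosin motors of the thick filaments pull on actin of the thin filaments when calcium released from the sarcoplasmic reticulum binds troponin. Adult fibers differ in speed because most sarcomere proteins exist as fast and slow isoforms from separate genes, and the heavy chain of myosin names the fiber type. Mouse thigh muscles, which surround the femur, are made up mostly of fast fibers. A callus is the cartilage, bone and granulation tissue that bridges a fracture, and skeletal muscle fibers lie around it rather than in it.

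The stretches just upstream of 5 of the genes are printed because they belong to members whose levels are described most closely: the fast genes Myh4 and Mylpf, the slow genes Myh7 and Myoz2, and Acta1, the most abundant member. The set of RefSeq windows used here held 39 such windows for 32 of the 43 genes in build GRCm38. The other members were not searched. Each sequence gives the 250 bases before the RefSeq start on the gene's own strand. Capitals mark the E-box CANNTG bound by myogenic factors such as MyoD, the MEF2 motif, the CArG motif of serum response factor, and TATAAA.
Myh4 (chr11:67237562-67237811, plus strand): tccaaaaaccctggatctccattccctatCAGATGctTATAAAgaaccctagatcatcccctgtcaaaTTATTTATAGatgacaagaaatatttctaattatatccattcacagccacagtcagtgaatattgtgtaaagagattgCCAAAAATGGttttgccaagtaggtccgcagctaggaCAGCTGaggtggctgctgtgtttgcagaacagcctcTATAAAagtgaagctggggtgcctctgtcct
Mylpf (chr7:127211358-127211607, plus strand): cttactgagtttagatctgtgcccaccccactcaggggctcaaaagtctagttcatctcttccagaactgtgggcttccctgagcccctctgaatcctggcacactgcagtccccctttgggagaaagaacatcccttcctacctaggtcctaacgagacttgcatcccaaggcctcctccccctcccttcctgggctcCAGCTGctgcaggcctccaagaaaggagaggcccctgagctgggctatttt
Acta1 (chr8:123894776-123895025, minus strand): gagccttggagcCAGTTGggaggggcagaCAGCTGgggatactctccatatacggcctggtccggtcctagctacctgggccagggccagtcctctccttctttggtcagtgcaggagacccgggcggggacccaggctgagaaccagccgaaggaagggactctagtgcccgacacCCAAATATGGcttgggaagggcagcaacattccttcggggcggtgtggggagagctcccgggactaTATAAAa
Myh7 (chr14:54994627-54994876, minus strand): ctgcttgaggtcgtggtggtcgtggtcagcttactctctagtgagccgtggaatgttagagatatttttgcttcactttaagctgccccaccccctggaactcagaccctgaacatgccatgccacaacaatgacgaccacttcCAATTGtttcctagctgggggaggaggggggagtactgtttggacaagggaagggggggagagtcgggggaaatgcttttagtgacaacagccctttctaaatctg
Myoz2 (chr3:123034988-123035237, minus strand): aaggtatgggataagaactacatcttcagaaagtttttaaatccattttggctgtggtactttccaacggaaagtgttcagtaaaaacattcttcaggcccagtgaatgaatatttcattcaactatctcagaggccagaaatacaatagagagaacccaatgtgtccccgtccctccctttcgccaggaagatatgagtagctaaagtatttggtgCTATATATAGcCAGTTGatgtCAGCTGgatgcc

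Both strands of every window were searched, and a CAGCTG match was counted as an E-box too. The form CAGCTG stood in 17 of the 39 windows (43.6%), beside 13.0% of all 32851 RefSeq windows of the same length. Any E-box was found in 33 windows (84.6%, beside 66.2% of all windows). The MEF2 motif occurred in 7 windows (17.9%, beside 2.92%), those of Casq2, Myh1, Myh4, Myom3, Myoz2, Pvalb and Ttn. The CArG motif occurred in 6 windows of 5 genes (15.4%, beside 1.47%), namely Acta1, Ldb3, Myh4, Myl3 and Myom1. TATAAA was matched in 6 windows (15.4%, beside 12.4%). In Myoz2 the MEF2 match began 33 bases and the nearest CAGCTG 12 bases before the RefSeq start. In Acta1 the CArG match began 73 bases before the RefSeq start. GENCODE starts Myoz2 at 123035015, inside its printed window, and Acta1 at 123894751, past the RefSeq start. It starts Mylpf at 127208890, ahead of the printed window. The distances therefore hold for the RefSeq starts only. These matches describe the letters of the windows and were not tested for binding.

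The libraries held 16987388 to 23272479 counts, which are the authors' expected counts (estimates that need not be whole) after rounding. SR-717 replicate 1 and PBS replicate 1 stood apart from the other 7 on the first principal component of all genes, which carried 44.1% of the variance. Their scores were 105.0 and 40.3, and the others lay between -30.2 and -4.15, with H-151 replicate 1 the highest of these. In SR-717 replicate 1 and PBS replicate 1, 8 inflammatory markers, led by Il1b and Cxcl2, summed to 2761 and 566 TPM. Elsewhere they summed to 26.4 to 134 TPM, with H-151 replicate 1 again the highest. The sums of 8 chondrocyte markers, led by Col2a1 and Col10a1, were 122 and 777 TPM in SR-717 replicate 1 and PBS replicate 1. Elsewhere these ran from 2206 to 8127 TPM, with H-151 replicate 1 at 5974. TPM is the authors' level per transcript length, scaled to a fixed total in each library. PBS replicate 3 had the highest sum of 8 osteoblast markers, led by Col1a1 and Spp1, at 24110.2 TPM, and the lowest of 8 neutrophil markers, led by S100a9 and S100a8, at 1458 TPM. The part of these differences in the muscle values below was not tested.

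Muscle transcripts made up a small part of every callus library, and their share differed widely among libraries of the same group. The 43 genes took 2.64, 3.89 and 0.953% of the counts in the PBS libraries, 2.53, 3.94 and 3.26 in the H-151 libraries and 1.79, 3.88 and 4.89 in the SR-717 libraries. PBS replicate 3 had the smallest share and SR-717 replicate 3 the largest, 5.13 times apart, and the ranges of the 3 groups overlapped. The group means were 2.49% ± 1.48 with PBS, 3.24% ± 0.704 with H-151 and 3.52% ± 1.58 with SR-717 (SD, n = 3). The 95% Wilson interval of a share reached at most 0.01 percentage points to either side, which covers counting error only. In bulk tissue, fewer muscle fibers in a sample and less of this RNA per fiber cannot be told apart.

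**Figure D1:**
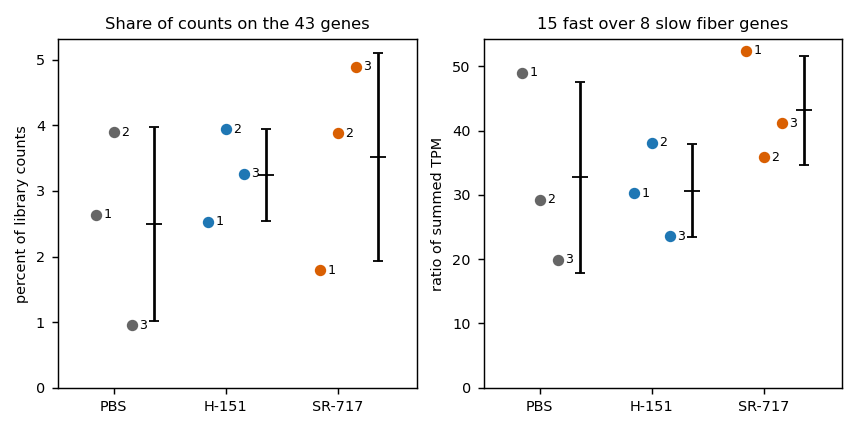
Muscle content and fiber type of each callus library. The left panel plots the percent of library counts on the 43 genes and the right panel the summed TPM of 15 fast genes over that of 8 slow genes; points are libraries numbered by replicate, and the bar beside each group is the mean ± SD (n = 3). The share runs from 0.953% in PBS replicate 3 to 4.89% in SR-717 replicate 3, and the groups overlap in both panels.

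The label of the genes was checked against heart muscle, which shares several of them, among them the slow genes Myh7, Myl2, Myl3 and Tnnc1. Of 12 heart markers, 1 reached 1 TPM in any library: Tnni3, the heart form of troponin I, at 0.439 to 1.91 TPM. The 12 together summed to 0.976 to 3.71 TPM, and Nppa, which codes for the atrial natriuretic peptide, was listed at 0 in all 9 libraries. Genes of mature skeletal muscle outside the 43 were present as well. In a list of 53, Mstn and Pln fell to 0.244 and 0.306 TPM in their lowest libraries, but all 53 genes reached 1 TPM in some library. Their sum was 4329.9, 7038 and 1863 TPM in the PBS libraries, 4679.7, 6231 and 5320.5 in the H-151 libraries and 2767, 5396 and 7829 in the SR-717 libraries. The smallest sum was again that of PBS replicate 3 and the largest that of SR-717 replicate 3.

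The adult myosin heavy chains are the motors that set fiber speed, with Myh4 in the fastest fibers (type IIb), Myh1 in IIx, Myh2 in IIa and Myh7 in slow fibers. Myh4 was at 912, 1089 and 175 TPM with PBS, 691, 1022 and 594 with H-151 and 539, 961 and 1305 with SR-717. Myh1 was at 186, 471 and 73.8 TPM with PBS, 255, 360.0 and 329 with H-151 and 149.8, 469.9 and 608 with SR-717. Myh7 was at 9.42, 34.9 and 12.2 TPM with PBS, 18.7, 22.2 and 31.2 with H-151 and 4.62, 32.3 and 29.0 with SR-717. Myh4 was the highest of the 4 genes in all 9 libraries and Myh7 the lowest. As a share of the summed TPM of the 4, Myh4 made up 79.4, 61.4 and 60.0% in the PBS libraries, 65.7, 66.9 and 53.5 in the H-151 libraries and 75.1, 59.3 and 61.8 in the SR-717 libraries. The largest shares were in PBS replicate 1 and SR-717 replicate 1, the smallest in H-151 replicate 3, and all 3 groups overlapped. Myh7 made up 0.820, 1.97 and 4.18% in the PBS libraries, 1.78, 1.46 and 2.80 in the H-151 libraries and 0.643, 1.99 and 1.37 in the SR-717 libraries. Its lowest shares were in the libraries where that of Myh4 was highest, as values that sum to a whole can force. Myh2 ranged from 3.42% in SR-717 replicate 1 to 14.1% in H-151 replicate 3. Myh2, Myh1 and Myh4 lie next to each other on the plus strand of chromosome 11 (GRCm38), at 67171027 to 67197517, 67200052 to 67224575 and 67238029 to 67260446. The expected counts of these 3 and of Myh7 were not whole in any library, as happens when reads that fit several genes are divided among them, so the split among the 4 is less certain than their sum.

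**Figure D2:**
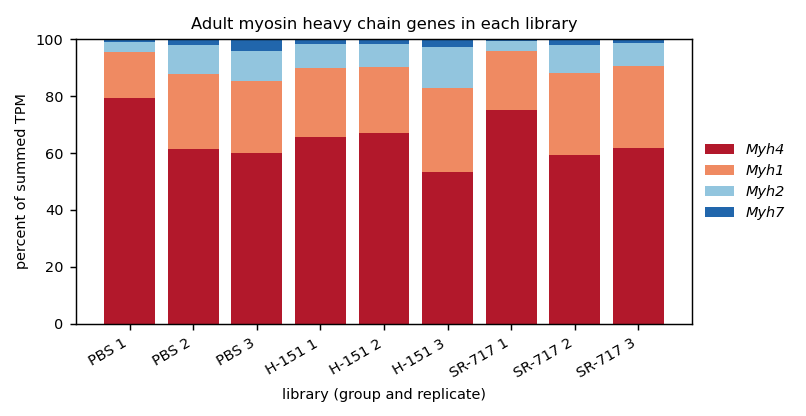
Adult myosin heavy chain genes by library. Each bar divides the summed TPM of Myh4, Myh1, Myh2 and Myh7 in 1 library, in percent; Myh4 takes 53.5% to 79.4% and Myh7 0.643% to 4.18%.

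Light chains brace the lever arm of the myosin head, and their fast forms were among the most abundant members. Mylpf, the fast regulatory light chain, was at 3981, 5995 and 1843 TPM in the PBS libraries, 4229.6, 5671 and 4788 in the H-151 libraries and 2997, 5783 and 8089 in the SR-717 libraries. Myl1, the fast essential light chain, was at 2508, 3613 and 1159.8 TPM in the PBS libraries, 2615, 3012 and 3097 in the H-151 libraries and 1712, 3499.9 and 4392 in the SR-717 libraries. For both, the lowest library was PBS replicate 3 and the highest SR-717 replicate 3. Their slow partners were far lower per length. Myl2, the slow regulatory light chain, was at 31.8, 90.1 and 51.8 TPM in the PBS libraries, 77.5, 74.3 and 146 in the H-151 libraries and 10.2, 91.5 and 83.5 in the SR-717 libraries. Myl3, the slow essential light chain, was at 49.5, 227 and 47.2 TPM in the PBS libraries, 86.3, 149.6 and 150.5 in the H-151 libraries and 37.9, 121 and 159.9 in the SR-717 libraries. Myl2 had the widest spread of all 43 members, with 14.3-fold between SR-717 replicate 1 and H-151 replicate 3. Mylk2, the kinase that phosphorylates the fast regulatory chain, ranged from 8.34 to 48.3 TPM.

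Thin filaments are polymers of actin wound with tropomyosin. Acta1, skeletal muscle actin, was the most abundant member, at 4679, 9262 and 1701 TPM in the PBS libraries, 5237, 8699 and 6113 in the H-151 libraries and 3432, 7809 and 10466 in the SR-717 libraries. Tpm1, an alpha-tropomyosin that smooth muscle and fibroblasts also make, was at 3127, 3825 and 1484 TPM in the PBS libraries, 2895, 4084 and 3571 in the H-151 libraries and 1761, 3806 and 5077 in the SR-717 libraries. For both genes PBS replicate 3 was the lowest library and SR-717 replicate 3 the highest, with the H-151 libraries in between. Tpm2 (beta-tropomyosin) ranged from 483 to 1864 TPM and Neb, the giant ruler protein nebulin, from 23.9 to 123 TPM. Acta1 counts were not whole in 5 libraries.

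Troponin is the calcium switch of the thin filament, made of a subunit that binds tropomyosin (T), an inhibitory subunit (I) and a calcium-binding subunit (C), each with a fast and a slow gene. Tnnt3, fast troponin T, was at 2431, 2722 and 667 TPM with PBS, 1986, 2936 and 2469 with H-151 and 1379.9, 2793 and 3704 with SR-717. Tnni2, fast troponin I, was at 1629, 2089.6 and 514 TPM with PBS, 1532, 2276 and 1928 with H-151 and 951, 2186 and 2890.2 with SR-717. Tnnc2, fast troponin C, was at 1722, 1800.1 and 548 TPM with PBS, 1475, 1972 and 1875 with H-151 and 967, 2273 and 2784 with SR-717. These 3 fast subunits had their lowest level in PBS replicate 3 and their highest in SR-717 replicate 3. Tnnt1, slow troponin T, was at 95.9, 164 and 60.3 TPM with PBS, 126, 126 and 174 with H-151 and 44.6, 172 and 180.4 with SR-717. Tnni1, slow troponin I, was at 69.5, 123 and 57.7 TPM with PBS, 99.9, 99.5 and 108 with H-151 and 44.7, 98.9 and 125 with SR-717. Tnnc1, slow and cardiac troponin C, was at 76.7, 113 and 55.0 TPM with PBS, 86.1, 102 and 131 with H-151 and 41.4, 94.4 and 113 with SR-717. In contrast to the fast subunits, the 3 slow ones were lowest in SR-717 replicate 1, and PBS replicate 3 was the next lowest library for each. Tnni2 and Tnnt3 are neighbors on chromosome 7, at 142441808 to 142444410 and 142498836 to 142516009.

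Titin, coded by Ttn, is a giant spring that reaches from the Z disc to the M band, and myosin-binding protein C stabilizes the thick filament. Mybpc2, the fast form of the latter, was at 263, 279 and 55.0 TPM with PBS, 200.3, 327 and 189 with H-151 and 173, 276 and 386 with SR-717. Mybpc1, the slow form, which fast fibers also hold, was at 68.1, 120.4 and 33.6 TPM with PBS, 87.9, 109.8 and 117 with H-151 and 55.5, 99.5 and 146 with SR-717. Ttn stayed between 4.24 and 14.6 TPM. In PBS replicate 3 Mybpc2 was 7.01-fold below its highest library, while Mybpc1 was 4.35-fold below and Ttn 3.45-fold below. Myomesins crosslink thick filaments at the M band. Myom2 was at 44.1, 67.0 and 14.0 TPM with PBS, 52.5, 65.1 and 49.7 with H-151 and 33.2, 60.4 and 78.3 with SR-717. Myom1 was at 36.3, 58.9 and 18.2 TPM with PBS, 44.4, 60.0 and 43.8 with H-151 and 28.1, 56.4 and 71.9 with SR-717. Myom3, the myomesin of slow and intermediate fibers, was the lowest member by mean TPM, at 2.62 to 13.7 TPM. The 2 leading myomesins were lowest in PBS replicate 3, and Myom3 in SR-717 replicate 1.

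The Z disc anchors thin filaments from neighboring sarcomeres. Actn3, the alpha-actinin of fast fibers, was at 449.8, 627 and 127 TPM in the PBS libraries, 427, 706 and 420.3 in the H-151 libraries and 308, 619 and 737 in the SR-717 libraries. Tcap, telethonin, which caps titin at the Z disc, was at 228, 747 and 139 TPM in the PBS libraries, 397, 680.4 and 496 in the H-151 libraries and 127, 424 and 605 in the SR-717 libraries. Both had overlapping groups, with Actn3 lowest in PBS replicate 3 and Tcap lowest in SR-717 replicate 1. Myoz1, the calcineurin-binding Z-disc protein of fast fibers, was at 259, 378 and 83.1 TPM in the PBS libraries, 262, 396 and 287 in the H-151 libraries and 155, 329 and 492 in the SR-717 libraries. Myoz2, its slow and cardiac relative, was at 19.4, 39.2 and 19.6 TPM in the PBS libraries, 37.3, 35.2 and 58.1 in the H-151 libraries and 13.6, 35.6 and 48.8 in the SR-717 libraries. Myot, myotilin, an actin-bundling protein of the Z disc, was at 41.6, 62.0 and 19.4 TPM in the PBS libraries, 52.2, 60.3 and 99.6 in the H-151 libraries and 21.4, 49.2 and 70.8 in the SR-717 libraries. H-151 replicate 3 was the highest library for Myoz2 and Myot, and the other 2 H-151 libraries lay within the PBS range. Actn2, the alpha-actinin of all fibers, and Ldb3, a scaffold of the disc, ranged from 46.3 to 248 TPM and from 74.3 to 442 TPM.

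Contraction ends when Atp2a1, the fast calcium pump SERCA1, returns calcium to the sarcoplasmic reticulum, where calsequestrin stores it, and when parvalbumin buffers what remains. Pvalb (parvalbumin) was at 2339, 2427 and 728 TPM with PBS, 1770.0, 2915 and 2049 with H-151 and 1193, 2629 and 3775 with SR-717. Atp2a1 was at 1402, 2346 and 386 TPM with PBS, 1356, 2204 and 1376 with H-151 and 959.5, 2125 and 2751 with SR-717. Their levels placed them with the abundant structural genes. Casq1, the calsequestrin of fast fibers, was at 600.0, 849 and 175 TPM with PBS, 547, 755 and 588 with H-151 and 338, 867 and 1133 with SR-717. Casq2, that of slow fibers and heart, was at 30.4, 60.8 and 25.8 TPM with PBS, 44.4, 39.8 and 57.0 with H-151 and 28.9, 51.0 and 69.4 with SR-717. Casq2 varied least of all 43 members, by 2.69-fold between PBS replicate 3 and SR-717 replicate 3. The release channel Ryr1, the voltage sensor subunits Cacna1s and Cacng1, and the junction protein Jph1 ranged from 2.96 TPM for Jph1 to 95.8 TPM for Cacng1. Ryr1 was 7.12-fold apart between PBS replicate 3 and H-151 replicate 2.

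Ckm, the muscle creatine kinase that buffers ATP, was at 2101, 3244 and 604 TPM in the PBS libraries, 1803, 3029.6 and 2117 in the H-151 libraries and 1255, 2687 and 3610.2 in the SR-717 libraries. Mb, the oxygen store myoglobin, which is richest in oxidative fibers, was at 602, 1967 and 510.0 TPM in the PBS libraries, 1239.7, 1869.6 and 1905 in the H-151 libraries and 409.7, 1497 and 2221 in the SR-717 libraries. Ckmt2, the mitochondrial creatine kinase, ranged from 48.9 to 312 TPM. PBS replicate 3 was lowest for Ckm, and SR-717 replicate 1 for Mb and Ckmt2.

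**Figure D3:**
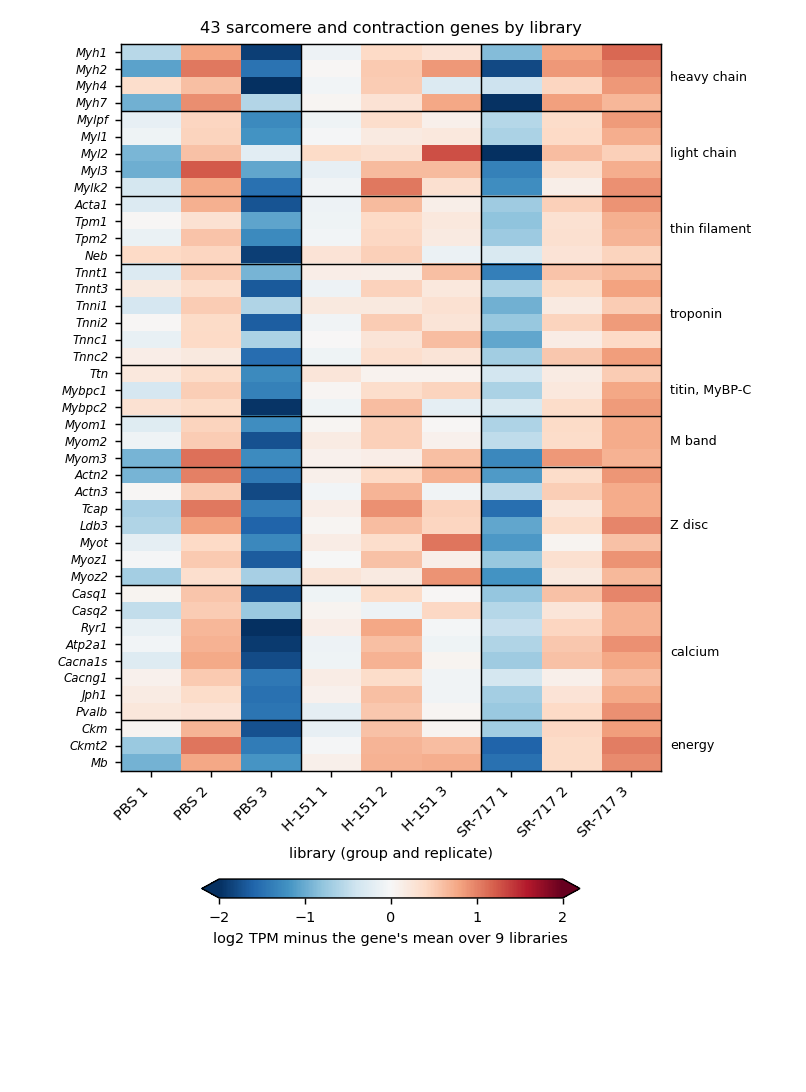
Levels of the 43 genes in each library. Colors give log2 TPM minus the gene's mean over the 9 libraries, with rows ordered by role and colors capped at 2; PBS replicate 3 is the lowest library for 31 genes and SR-717 replicate 3 the highest for 29.

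Across the 43 genes, the lowest library was PBS replicate 3 for 31 and SR-717 replicate 1 for the other 12. The highest library was SR-717 replicate 3 for 29, PBS replicate 2 for 7, H-151 replicate 3 for 4 and H-151 replicate 2 for 3. The highest and lowest libraries of a gene differed by 2.69-fold to 14.3-fold in TPM, with a median of 5.55-fold. That median was 5.81-fold over the 15 fast genes and 4.16-fold over the 8 slow genes. The lowest values thus fell in 2 libraries and the highest in 4, and the PBS and SR-717 groups each held both kinds.

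The fast genes outweighed the slow genes in every library, by a ratio that differed 2.63-fold among libraries. The summed TPM of the 15 fast genes over that of the 8 slow genes was 49.0, 29.2 and 20.0 in the PBS libraries, 30.3, 38.1 and 23.6 in the H-151 libraries and 52.5, 35.9 and 41.2 in the SR-717 libraries. SR-717 replicate 1 and PBS replicate 1 had the highest ratios, and PBS replicate 3 the lowest. The means were 32.7 ± 14.8 with PBS, 30.7 ± 7.28 with H-151 and 43.2 ± 8.47 with SR-717 (SD, n = 3), and the ranges of every pair of groups overlapped. The slow sum itself was 383, 852 and 329 TPM in the PBS libraries, 576, 648 and 856 in the H-151 libraries and 226, 696 and 808 in the SR-717 libraries. The slow sum varied 3.79-fold and the fast sum 5.06-fold among the 9 libraries.

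Within a library, each gene was then set against the median of the 43, as log2 TPM relative to the gene's mean minus the library's median of that value. In PBS replicate 3, where muscle content was lowest, all 8 slow genes lay above the library's median, by a median of 0.78, led by Myl2 at 1.22, Myh7 at 0.85 and Tnni1 at 0.83. In the same library 13 of the 15 fast genes lay below it, with Myh4 at -0.60. H-151 replicate 3 had all 8 slow genes above as well, by a median of 0.41, with Myl2 at 1.07. SR-717 replicate 1 showed the opposite order, with 7 of 8 slow genes below the library's median and a median of -0.52. Its lowest genes were Myl2 at -1.80, Myh7 at -1.24 and Myh2 at -1.06, followed by Ckmt2 at -0.86, Tcap at -0.76 and Mb at -0.75. PBS replicate 1 also had 7 of 8 slow genes below, by a median of -0.42, and its lowest genes again included Myh2 at -0.90, Myh7 at -0.79 and Mb at -0.77. Myh2, Ckmt2 and Mb are not in the slow list but are rich in oxidative fibers. SR-717 replicate 1 and PBS replicate 1 are also the libraries with the highest sums of inflammatory markers, whose part in this order was not tested. In the remaining 5 libraries the slow median lay closer to 0, between -0.25 and 0.08. Counts alone did not set the libraries apart, since 7 of 8 slow genes lay below the library's median in H-151 replicate 2 (median -0.25) and all 8 in SR-717 replicate 3 (median -0.10).

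**Figure D4:**
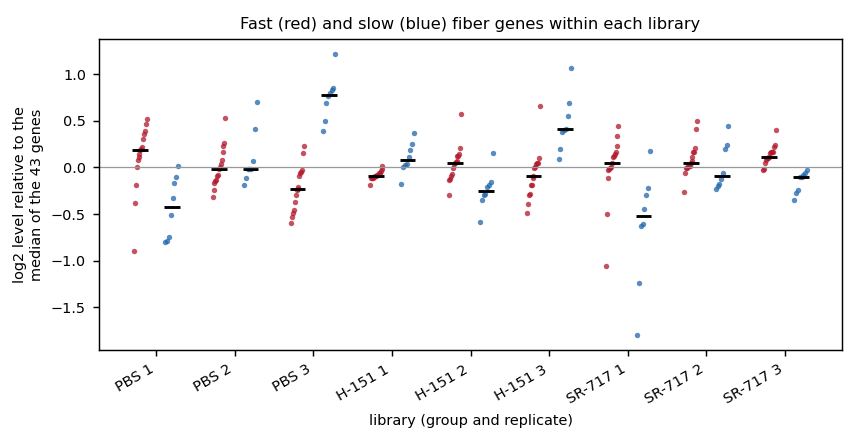
Fast and slow fiber genes within each library. Points are genes, with 15 fast genes in red and 8 slow genes in blue, black bars are medians, and the vertical axis is the log2 level relative to the median of the 43 genes in that library; slow genes sit highest in PBS replicate 3 (median 0.78) and lowest in SR-717 replicate 1 (median -0.52).

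Fast and slow forms of the same protein were also compared gene by gene, in 8 pairs. The TPM ratio of Tnnt3 to Tnnt1 was 25.4, 16.6 and 11.1 with PBS, 15.8, 23.4 and 14.2 with H-151 and 30.9, 16.3 and 20.5 with SR-717. The ratio of Casq1 to Casq2 was 19.7, 14.0 and 6.78 with PBS, 12.3, 19.0 and 10.3 with H-151 and 11.7, 17.0 and 16.3 with SR-717. The ratio of Mylpf to Myl2 was 125, 66.5 and 35.6 with PBS, 54.5, 76.3 and 32.8 with H-151 and 293, 63.2 and 96.9 with SR-717. PBS replicate 3 had the lowest ratio for 6 of the 8 pairs, those of heavy chain, troponin T, troponin I, troponin C, calsequestrin and myozenin. Mylpf over Myl2 was lowest in H-151 replicate 3, and Myl1 over Myl3 in PBS replicate 2, at 15.9. The highest ratio lay in SR-717 replicate 1 for the heavy chain, regulatory light chain and troponin T pairs, where Myh4 over Myh7 reached 117. The pairs did not all follow 1 order: in SR-717 replicate 1, Casq1 over Casq2 was below its median over libraries (14.0), and in PBS replicate 3, Myl1 over Myl3 was 24.6, above 3 other libraries. The highest ratio lay in PBS replicate 1 for 4 pairs, those of essential light chain, troponin I, calsequestrin and myozenin, and in SR-717 replicate 3 for troponin C, at 24.7. The groups overlapped for 7 of the 8 pairs. The exception, singled out after its values were seen, was Tnnc2 over Tnnc1, at 22.4, 15.9 and 9.95 with PBS, 17.1, 19.3 and 14.3 with H-151 and 23.4, 24.1 and 24.7 with SR-717. All 3 SR-717 libraries lay above the others here, the PBS and H-151 ranges overlapped, and Tnnc2 counts were not whole in 8 libraries. No share over other gene pairs was computed for such a separation, so it was not tested. Among single genes in CPM, 3.75% did not overlap between SR-717 and PBS and 5.18% between SR-717 and H-151.

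The comparisons of the groups asked whether blocking or activating STING altered the amount of muscle transcripts in the callus. With SR-717 against PBS, no member passed either rule, neither an adjusted p under 0.05 nor an unadjusted p under 0.05 with a change of at least 1.5-fold. Over all 14070 genes tested, 0.27% were called higher and 0.249% lower by the second rule, and 0% by the first. All 43 fitted log2 fold changes were above 0, from 0.10 ± 0.75 (SE) for Myl3 to 0.86 ± 0.72 for Myh1, with a median of 0.48 beside 0.01 over all genes. The median was 0.59 for the fast genes and 0.26 for the slow genes. With a library left out, the fast median ran from 0.20 without PBS replicate 3 to 0.97 without PBS replicate 2. The slow median was 0.0011 without SR-717 replicate 3, with 4 of 8 genes above 0, 0.05 without SR-717 replicate 2, 0.08 without PBS replicate 1, 0.13 without PBS replicate 3, 0.69 without SR-717 replicate 1 and 0.79 without PBS replicate 2. In edgeR's quasi-likelihood test the smallest unadjusted p was 0.244, for Tnnc2 (0.67 ± 0.52), at an adjusted p of 0.9999. The next were Mylpf (0.62 ± 0.48), Myom1 (0.56 ± 0.46), Myh1 and Casq2 (0.45 ± 0.39), whose TPM are given above. In CPM (counts scaled to library size with TMM), the libraries of the groups overlapped for all 43 members, and 3.75% of all genes did not overlap. No member had an unadjusted p under 0.05, in edgeR or in DESeq2. The median of the 43 was 0.15 without PBS replicate 3, 0.98 without PBS replicate 2, 0.21 without SR-717 replicate 3 and 0.81 without SR-717 replicate 1. In the fit blocked by replicate number, again no member was called, and 2.43% of all genes were called higher.

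With H-151 against PBS, again no member passed either rule. Of 14085 genes tested, 0.263% were called higher and 0.163% lower by unadjusted p and fold, and 0% by adjusted p. All 43 fitted changes were above 0, from 0.13 ± 0.59 (SE) for Myh4 to 0.88 ± 0.45 for Myot, with a median of 0.42 beside -0.02 over all genes. The fast median was 0.41 and the slow median 0.44. Without PBS replicate 3 they were 0.02 and 0.23, without PBS replicate 2 they were 0.77 and 1.03, and without H-151 replicate 3 they were 0.33 and 0.18. This comparison shares its PBS libraries with the one before. The smallest unadjusted p in edgeR's test was 0.0631, for Myoz2, with a log2 fold change of 0.82 ± 0.37 (SE) and an adjusted p of 0.9999. DESeq2 called Myoz2 higher by unadjusted p and fold, beside 0.312% of all genes. Myot (0.88 ± 0.45), Myl2 (0.85 ± 0.46), Tnnc1 (0.45 ± 0.30) and Tnnt1 (0.49 ± 0.35) followed, 3 of them from the slow list. For each of these 5 genes H-151 replicate 3 was the highest H-151 library and lay above every PBS library. All 43 overlapped between the groups in CPM, while 3.87% of all genes did not. Without PBS replicate 3 the median was 0.07 with 31 of 43 genes above 0, and without PBS replicate 2 it was 0.89 with 19 members called higher by unadjusted p and fold, 7 of the 8 slow genes and 3 of the 15 fast genes among them, beside 3.39% of all genes. None of the 19 reached an adjusted p under 0.05, and the smallest was 0.608. The fit blocked by replicate number again called no member, and 1.43% of all genes were called higher. Its smallest unadjusted p in edgeR were 0.0535 for Myl2, 0.0553 for Myoz2 and 0.0569 for Mb. Without the block these were 0.108, 0.0631 and 0.212. For Myot the block gave 0.131, beside 0.0943 without it.

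With SR-717 against H-151 the fitted changes were split, with 28 genes above 0 and 15 below, and no member passed either rule. By unadjusted p and fold, 0.367% of 14151 genes were called higher and 0.389% lower, and 0% by adjusted p. The median was 0.07 beside 0.02 over all genes. Fast and slow genes lay on opposite sides of 0, since 13 of 15 fast genes were fitted above it (median 0.21) and 7 of 8 slow genes below it (median -0.20). In edgeR's test the smallest unadjusted p was 0.259, for Myot, with a log2 fold change of -0.59 ± 0.47 (SE) and an adjusted p of 0.996. It was followed by Myh4 (0.33 ± 0.35), Myl2 (-0.69 ± 0.75), Tnnc1 (-0.34 ± 0.38) and Myoz2 (-0.41 ± 0.47). The CPM of the groups overlapped for all 43, and 5.18% of all genes did not overlap. No unadjusted p was under 0.05 in edgeR or in DESeq2. Without SR-717 replicate 1, the library with the lowest slow genes, the slow median was 0.15 with 5 of 8 above 0, all 15 fast genes were above 0 at a median of 0.50, and Myh1 (0.79) and Casq1 (0.69) were called higher by unadjusted p and fold, beside 0.498% of all genes. Without SR-717 replicate 3 the fast median was -0.07, the slow median -0.49, and the median of the 43 was -0.18 with 38 genes below 0.

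**Figure D5:**
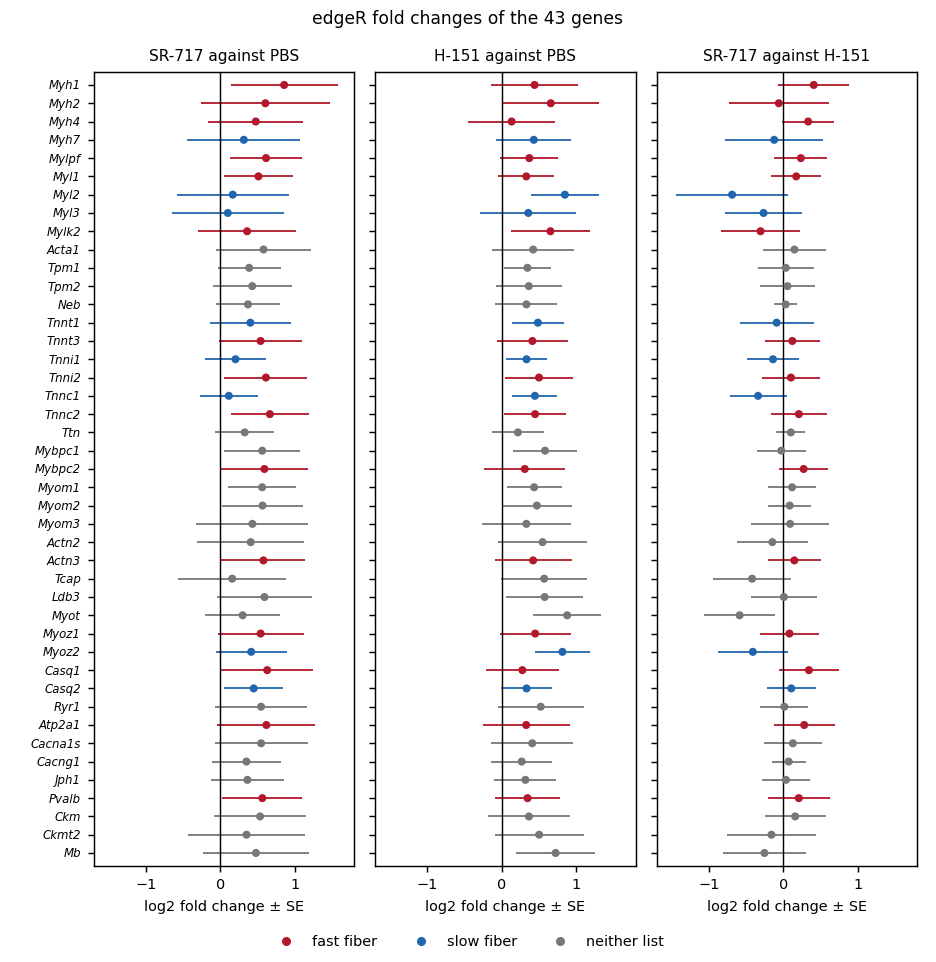
Fitted log2 fold changes of the 43 genes in 3 comparisons. Points are edgeR estimates and lines ± 1 SE, derived from the F statistic of the test. Fast genes are in red, slow genes in blue and others in gray. All 43 lie above 0 in both comparisons with PBS, which share the PBS libraries, and none passed a test.

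Other genes of mature muscle gave a similar picture, and none of them passed the adjusted test. The 53 genes of that list had medians of 0.41, 0.40 and 0.02 in the comparisons of SR-717 with PBS, of H-151 with PBS and of SR-717 with H-151, and 49, 48 and 27 of them were fitted above 0. Without PBS replicate 3 the first 2 medians were 0.06 and 0.03, with 31 and 30 genes above 0. Without PBS replicate 2 they were 0.93 and 0.85. In that setting 18 genes were called higher with H-151 by unadjusted p and fold, beside 3.39% of all genes. Without SR-717 replicate 3 the median for SR-717 against H-151 was -0.29. In the fit blocked by replicate number, 3 genes of the list were called higher with H-151 than with PBS by that rule, beside 1.43% of all genes: Csrp3 (log2 fold change 1.33), Hspb7 (1.15) and Nrap (1.03), each at an adjusted p of 1 in edgeR and named after the values were seen. Its 5 most abundant genes by mean TPM were Eno3, Pgam2, Pygm and Cox6a2, which serve glycolysis, glycogen breakdown and respiration, and Actc1, the actin of heart and embryonic muscle. Eno3 was at 609, 1096 and 205 TPM in the PBS libraries, 672, 926 and 721 in the H-151 libraries and 419, 748 and 1204 in the SR-717 libraries. Actc1 was at 293, 739.9 and 91.7 TPM in the PBS libraries, 293, 397 and 239 in the H-151 libraries and 218, 336 and 709 in the SR-717 libraries. The low library was PBS replicate 3 for both, as for most of the 43. A single gene of the list, named after its values were seen, was called lower with SR-717 than with H-151 by unadjusted p and fold. It was Csrp3, which codes for the muscle LIM protein of the Z disc. By the same rule 0.389% of all genes were called lower. Csrp3 was at 34.5, 123 and 43.7 TPM in the PBS libraries, 116, 120.2 and 202 in the H-151 libraries and 18.9, 41.0 and 96.7 in the SR-717 libraries. Its log2 fold change was -1.49 ± 0.59 (SE), its unadjusted p in edgeR was 0.0419 and its adjusted p 0.996. H-151 replicate 3 was its highest library and SR-717 replicate 1 its lowest.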

How the data were processed

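Callus RNA of 9 libraries was poly(A)-selected and sequenced as strand-specific paired reads, per the labels, whose extraction text is worded for cell lines although the source is given as bone. The authors deposited an expected count, not normalized, and a TPM value for each of 22054 genes and each library. Their processing notes name the genome build mm10. The aligner, the counting program, the annotation and the use of strand in counting are not given in the sources used here, so counts of similar or overlapping genes are uncertain. Fractions occurred in 8.91% of the expected counts, which were rounded before testing. All columns of per-sample values were used.

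Groups were compared with the quasi-likelihood test of edgeR 4.0.16 (R 4.3.3, filterByExpr at a count of 10 and a total of 15, TMM normalization, Benjamini-Hochberg adjustment) on the 6 libraries of the groups compared, over all genes. Calls used an adjusted p under 0.05, or an unadjusted p under 0.05 with a change of at least 1.5-fold. The SE of a log2 fold change was derived as its absolute value over the square root of the F statistic of the test. It thus restates that test. The script was tested on simulated data. Levels between genes were compared in TPM. Shares of counts carry 95% Wilson intervals. Positions are from GENCODE and promoter windows from RefSeq, both GRCm38.

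The members, lists and tests were chosen with earlier results of these data known. Named were the leading members by mean TPM in each role, both members of the 8 pairs, the 5 members with the smallest p in each comparison, and the leading genes of the other lists. Replicate numbers come from the labels, which do not say what they stand for. Libraries that share a number deviated together from their groups, with correlations of 0.65, 0.34 and 0.13 between SR-717 and PBS. Between H-151 and PBS these were 0.30, 0.48 and 0.49, and libraries of unlike number reached at most 0.03. Deviations from a group's own mean cancel within the group, so positive values at like numbers push those at unlike numbers down. Unlike numbers of SR-717 and PBS reached 0.35 (SR-717 replicate 3 with PBS replicate 2) and 0.20 (SR-717 replicate 2 with PBS replicate 3). For numbers 2 and 3 of SR-717 and PBS the values therefore do not single out the pairs of the labels. The main fits leave the number out, and the fit blocked by it is an alternative.

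Alternatives were DESeq2 1.42.0, its size factors in edgeR, a minimum mean count of 50, no low-count filter, TMM factors without muscle genes, all 9 libraries in 1 fit, a replicate block, and each library left out in turn.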

Additional observations from a re-analysis of the deposited data

How the results depend on the processing

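The absence of member calls at an adjusted p under 0.05 held in all 3 comparisons under every alternative run. By unadjusted p and fold, the members called higher with H-151 than with PBS numbered 1 (Myoz2) in DESeq2, beside 0.312% of all genes, 1 (Myoz2) without a filter on low counts, beside 0.494%, and 0 to 19 with a library left out, the 19 without PBS replicate 2, beside 3.39%. Those called higher with SR-717 than with H-151 numbered 0 to 2 with a library left out, the 2 without SR-717 replicate 1, beside 0.498%. With the replicate number as a block, 1 member, Myot, was called lower with SR-717 than with H-151, beside 0.389% of all genes. Its log2 fold change was -0.63 and its unadjusted p in edgeR was 0.0299. Same-numbered libraries of these 2 groups correlated at 0.31, 0.07 and 0.08. Those of unlike number reached 0.14, so no pairing is assumed there either. The replicate block changed no other call of a member. Among other mature muscle genes, it gave 3 calls in place of 0 for H-151 against PBS, beside 1.43% of all genes called higher. For SR-717 against H-151 it gave 3 in place of 1 (Csrp3, Hspb7 and Ankrd2, all lower), beside 0.389% of all genes called lower. The causes were not tested.

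The median log2 fold change of the 43 genes with a library left out ran from 0.15 to 0.98 for SR-717 against PBS, from 0.07 to 0.89 for H-151 against PBS and from -0.18 to 0.36 for SR-717 against H-151. With DESeq2's size factors or TMM factors without muscle genes, all 43 genes stayed above 0 in both comparisons with PBS and 28 in the third. With the block, 42, 43 and 21 were above 0, and the medians were 0.54, 0.59 and -0.01. Leaving out both libraries numbered 1, chosen after seeing the data, gave a median of 0.78 for SR-717 against PBS and no call. Of the other values for groups and single genes, 252 and 200 kept their side of the threshold or moved by less than 1 SD.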

Other observations

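Genes listed for regenerating muscle, some of which new fibers switch on before the adult isoforms, were found beside the mature genes. Of the 16, 15 reached 1 TPM in some library, Pax7 only at 1.03, and Myf5 stayed at 0 to 0.419 TPM. The 16 genes of that list summed to 338, 438 and 196 TPM in the PBS libraries, 402, 361 and 340.0 in the H-151 libraries and 304, 372 and 494 in the SR-717 libraries. The range of this sum among libraries was 2.53-fold, beside 4.90-fold for the sum of the 43 mature genes. PBS replicate 3 was the lowest library for both sums. The range of the sum is not that of its genes. Ncam1 ran from 15.7 to 26.3 TPM, but Myod1 from 3.44 to 17.7 and Myf6 from 4.20 to 27.7. Myl4, the embryonic essential light chain, led the list at 143, 211 and 95.7 TPM in the PBS libraries, 194, 177 and 169 in the H-151 libraries and 148, 159.7 and 226 in the SR-717 libraries. Tnnt2, the troponin T of heart and embryonic muscle, was at 48.6, 36.8 and 23.4 TPM in the PBS libraries, 47.2, 40.0 and 37.7 in the H-151 libraries and 30.6, 43.5 and 51.2 in the SR-717 libraries. In the comparison of SR-717 with H-151, 1 of the 15 genes tested was called higher by unadjusted p and fold, beside 0.367% of all genes, and it is named after its values were seen: Myh8, the perinatal myosin heavy chain, was at 19.2, 17.1 and 5.62 TPM in the PBS libraries, 14.3, 11.5 and 11.3 in the H-151 libraries and 21.6, 22.0 and 25.2 in the SR-717 libraries. The SR-717 libraries lay above all H-151 libraries, in CPM too, where 5.18% of all genes did not overlap between these groups. The log2 fold change was 0.97 ± 0.12 (SE), while the unadjusted p in edgeR was 0.000131 and the adjusted p 0.996. Counts of myosin heavy chain genes are shared out among similar genes, which limits this value too.

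The slow gene Myl2 and the fast gene Mylpf, which code for the regulatory light chain of the same motor, gave the widest range of any pair: their TPM ratio ran from 32.8 in H-151 replicate 3 to 293 in SR-717 replicate 1. Low counts add counting error to such ratios. The lowest member count in a library was 79, for Myl2 in SR-717 replicate 1, and the highest was 158815.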
